A study of Mus musculus with 21 samples.

Results

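The NF-kB family of transcription factors is encoded by 5 genes, Nfkb1, Nfkb2, Rel, Rela and Relb, and 5 further genes restrain or shape its activity. Nfkbia, Nfkbib and Nfkbie encode the inhibitors IkB alpha, beta and epsilon, Nfkbiz encodes the nuclear protein IkB zeta, and Tnfaip3 encodes the ubiquitin-editing enzyme A20. These 10 genes were picked out of the 45706 genes of each count table by the Ensembl identifier that belongs to each symbol. All 10 were among the 19555 genes that passed the filter on low counts. RNA had been sequenced from 3 sorted fractions of a mouse model of juvenile myelomonocytic leukemia (JMML). These were LSK cells of the bone marrow (BM), which are lineage-negative, Sca1-positive and cKit-positive stem and progenitor cells, and CD11b+ myeloid cells, sorted once from BM and once from spleen. Each fraction had 2 libraries labelled MxCre, 2 labelled Ptpn11D61Y/+ and 3 labelled S3 MxCre;Ptpn11D61Y/+, which makes 21 libraries.

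According to the methods, mice of all 3 genotypes received poly I:C, which induces interferon and so switches on the Mx promoter that drives Cre. MxCre mice carry this Cre without the mutant allele. Ptpn11D61Y/+ mice carry, behind a Neo-Stop cassette, an allele for the activating D61Y form of the phosphatase SHP2 but no Cre, so that the mutant allele stays silent and 1 functional allele remains. S3 mice carry both and were terminally ill, the third stage of the disease. The Mx promoter responds to interferon in many cell types, so that recombination is not limited to blood cells. S3 libraries are labelled by animal (540, 815 and 768 for LSK cells, 540, 815 and 640 for CD11b+ cells) and the others by number only. The methods give 3 mice per genotype for the CD11b+ cells of S3 and MxCre mice, while 2 MxCre libraries per fraction were analysed here. The labels do not tie the numbered libraries to particular mice, so p-values measure the spread between these libraries, which may be technical.

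Library totals lay between 34992610 and 104509425 counts (median 69421661). The lowest count of any of the 10 genes in a library was 425, for Nfkbib, so that counting error was small beside the differences between libraries. Fewest genes were detected in BM CD11b+ MxCre library 1 (14885), spleen CD11b+ MxCre library 1 (14641) and the BM CD11b+ library of S3 animal 815 (14761). Transcripts of the gate markers were checked as CPM, the counts scaled to a common library total with TMM factors. Kit ranged from 288 to 533 CPM in LSK and from 4.77 to 73.2 CPM in CD11b+ libraries, and Itgam, which encodes CD11b, from 31.6 to 114 CPM and from 151 to 1664 CPM. Ly6a, which encodes Sca1, overlapped between them, at 42.5 to 76.1 CPM in LSK and 3.18 to 313 CPM in CD11b+ libraries. Ighm, the heavy chain gene of B cell immunoglobulin M, was the most abundant gene in 4 of 7 LSK libraries and in spleen Ptpn11D61Y/+ library 1. Counts of Xist, the transcript of the inactive X chromosome, were 1, 2780 and 712 in the LSK, BM and spleen libraries of S3 animal 540. They also differed between the fractions for MxCre number 2 (9, 2834 and 4) and Ptpn11D61Y/+ number 1 (17, 1 and 4753), so that for these 3 sets the libraries of 1 number or animal were not alike. In the other sets the libraries were all high or all at 12 counts or fewer, at 39460, 3154 and 3941 for S3 animal 815, 9 and 1 for the BM and spleen of S3 animal 640, 12, 0 and 0 for MxCre number 1 and 11, 2 and 0 for Ptpn11D61Y/+ number 2. The LSK library of S3 animal 768 was at 88850. High Xist was thus unevenly spread. It was seen in LSK S3 animals 815 and 768 and spleen S3 animals 540 and 815, but in no LSK or spleen MxCre library. The part of this in the comparisons was not tested. Tests did not pair libraries by number unless stated.

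NF-kB dimers are held in the cytoplasm by IkB proteins until receptors for tumor necrosis factor, interleukin 1 or microbial products activate the IkB kinases, which mark the IkB proteins for degradation. The freed dimers switch on inflammatory and survival genes, and with them the genes of their own inhibitors, such as Nfkbia, Nfkbie and Tnfaip3, which end the response. A further route processes the Nfkb2 product and frees dimers that contain Relb. In myeloid cells these genes are known for fast induction by infection and cytokines, and a transcript level is not a measure of nuclear NF-kB.

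In GENCODE vM21 (GRCm38) the subunit genes lie at chr3:135584655-135691547 (Nfkb1), chr19:46304320-46312385 (Nfkb2), chr11:23736847-23770970 (Rel), chr19:5637483-5648130 (Rela) and chr7:19606217-19629438 (Relb). The inhibitor genes lie at chr12:55489410-55492647 (Nfkbia), chr7:28758251-28767512 (Nfkbib), chr17:45555703-45563169 (Nfkbie), chr16:55811375-55838899 (Nfkbiz) and chr10:19000910-19015657 (Tnfaip3). All 10 are protein-coding.

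Promoters were looked up in RefSeq (GRCm38.p6), since several of the 10 genes moved together between groups. The 250 bases before at least 1 start were found for 7 genes (Nfkb2, Rel, Rela, Nfkbia, Nfkbib, Nfkbie and Tnfaip3) and not for Nfkb1, Relb and Nfkbiz. The classical kB consensus, searched on both strands, matched in 5 of the 7, against 2225 of 27025 genes (8.23%) and 2382 of 32851 windows (7.25%) in the table. Shown are the 3 genes whose matching window lies outside the annotated gene, because they include the member that differed most between genotypes. They are printed 5′ to 3′ on the strand of the gene, with matches in capitals, for Nfkbia at chr12:55492648-55492897 (minus strand), Rel at chr11:23770971-23771219 (minus strand, 249 bases) and Nfkbie at chr17:45555450-45555699 (plus strand).
Nfkbia: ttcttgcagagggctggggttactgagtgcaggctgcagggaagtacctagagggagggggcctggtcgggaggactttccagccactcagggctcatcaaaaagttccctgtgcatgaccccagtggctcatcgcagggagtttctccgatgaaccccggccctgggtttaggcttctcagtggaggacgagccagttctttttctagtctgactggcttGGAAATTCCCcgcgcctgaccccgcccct
Rel: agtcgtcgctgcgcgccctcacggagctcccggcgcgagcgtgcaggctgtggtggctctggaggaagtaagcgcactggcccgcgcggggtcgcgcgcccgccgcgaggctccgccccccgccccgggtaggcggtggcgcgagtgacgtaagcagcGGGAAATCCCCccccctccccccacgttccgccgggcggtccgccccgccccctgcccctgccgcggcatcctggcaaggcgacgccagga
Nfkbie: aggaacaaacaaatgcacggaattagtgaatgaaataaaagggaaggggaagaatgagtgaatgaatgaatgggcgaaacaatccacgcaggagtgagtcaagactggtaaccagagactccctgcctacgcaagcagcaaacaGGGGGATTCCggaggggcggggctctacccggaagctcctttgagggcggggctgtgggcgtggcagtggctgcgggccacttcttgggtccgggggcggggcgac
The match lay 29 bases before the start in Nfkbia and 106 bases in Nfkbie, and Rel held 2 overlapping matches at 92 and 91 bases. A match describes letters and is not a binding site.

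Levels were compared between genes as RPKM, which is CPM per kilobase of exon. Nfkbia had the highest median of the 10 in each fraction, at 54.8 RPKM in LSK, 434 RPKM in BM CD11b+ and 356 RPKM in spleen CD11b+ cells. Among the subunits Rela, which encodes p65, led each time, with medians of 28.2, 47.0 and 64.6 RPKM. Relb and Rel had the lowest medians of all in LSK cells, at 2.44 and 3.79 RPKM. In spleen CD11b+ cells the lowest median was that of Nfkb1, at 22.1 RPKM, next to Rel at 25.6 RPKM, while Relb reached 50.7 RPKM.

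The 5 subunits thus made up different shares of their summed RPKM in the 3 fractions. Relb took 2.96% to 5.17% in LSK, 6.83% to 10.6% in BM CD11b+ and 11.6% to 29.6% in spleen CD11b+ libraries, without overlap. Nfkb1 took 22.7% to 32.0% in LSK libraries and less in every CD11b+ library, with 3.54% to 16.4% in BM and 3.89% to 20.5% in spleen. Rela took 45.0% to 50.6% in LSK, 40.5% to 65.9% in BM CD11b+ and 23.2% to 44.5% in spleen CD11b+ libraries. These shares are a description, with no test.

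**Figure D1:**
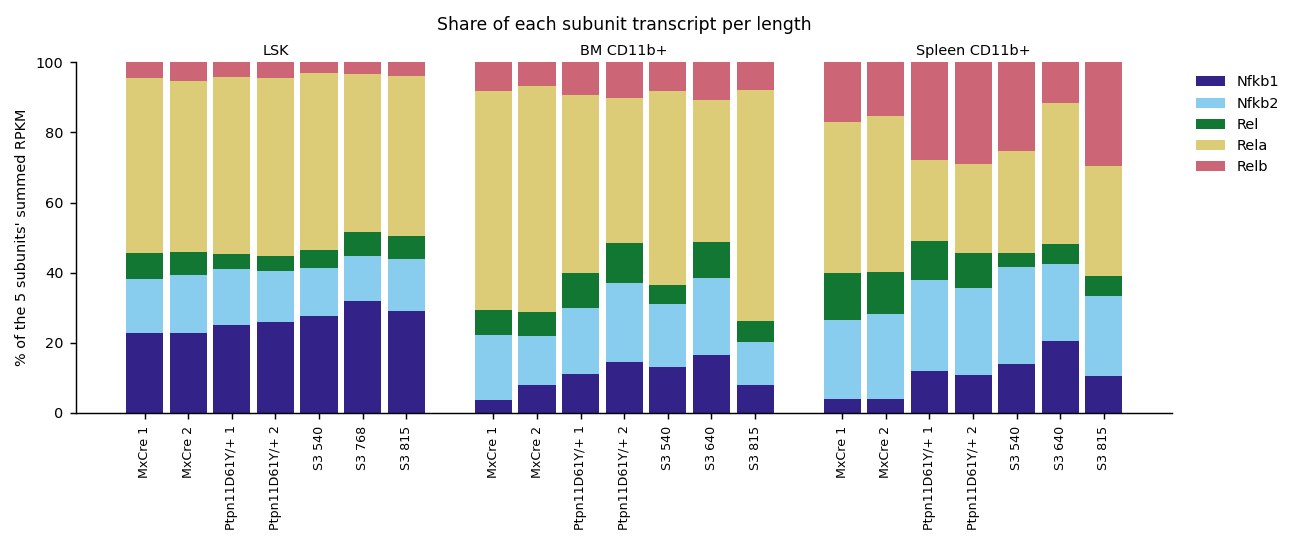
Stacked bars show, for each of the 21 libraries, the percentage that each of the 5 NF-kB subunit genes takes of their summed RPKM, grouped by fraction. Relb takes at most 5.17% in LSK and at least 11.6% in spleen CD11b+ libraries, and the Nfkb1 share is largest in LSK libraries.

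Most of the 10 genes were higher in CD11b+ cells than in LSK cells. Averaged over the 3 genotypes, 9 of 10 were higher in spleen CD11b+ than in LSK cells at an adjusted p below 0.05 (quasi-likelihood test of edgeR, Benjamini-Hochberg), where 28.3% of all genes tested were called higher. Their median log2 fold change was 2.59, against -0.15 for all genes. In BM CD11b+ against LSK cells 9 were higher, where 26.8% of all genes were, and 1, Nfkb1, was lower, where 31.6% were. Spleen CD11b+ cells exceeded BM CD11b+ cells in 7 of 10, where 6.56% of all genes were called higher, with a median of 1.18 against 0.07. In bulk libraries fewer cells of a type and less RNA per cell cannot be told apart. The summed level of 8 erythroid markers, led by hemoglobin genes in BM, ranged from 11814 to 143616 CPM in BM CD11b+, from 821 to 24348 CPM in spleen CD11b+ and from 124 to 1312 CPM in LSK libraries. It was highest in BM MxCre library 2 and both BM Ptpn11D61Y/+ libraries, and in BM it was lowest in S3 animal 640. The 10 mature neutrophil markers summed to 73923 and 77540 CPM in MxCre, 75315 and 54950 CPM in Ptpn11D61Y/+ and 71567, 69749 and 13728 CPM in S3 BM libraries. The same sum ranged from 2499 to 100125 CPM in spleen and from 302 to 1648 CPM in LSK libraries. The part of these cells in the differences between fractions was not tested. Over all genes 5537 were called higher and 6183 lower for spleen CD11b+ against LSK cells, and 5243 and 6175 for BM CD11b+ against LSK cells. With library totals in place of TMM factors these became 3193 and 9375, and 2706 and 9856, and the all-gene median became -0.90 and -0.99, against -0.17 with TMM factors in the BM comparison.

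Relb, the partner of p52, differed most among the subunits. Its levels ran from 6.41 to 15.2 CPM (median 9.47) in LSK, from 19.5 to 61.1 CPM (median 34.1) in BM CD11b+ and from 48.5 to 289 CPM (median 197) in spleen CD11b+ libraries. LSK libraries did not overlap with the others, and among spleen libraries only that of S3 animal 640 fell within the BM range. The log2 fold change was 4.34 (SE 0.37, adjusted p = 2.34e-07) for spleen CD11b+ against LSK cells and 2.62 (SE 0.34, adjusted p = 0.000444) against BM CD11b+ cells. Nfkb2, the precursor of p52, ranged over 32.2 to 57.1 CPM in LSK, 35.9 to 149.5 CPM in BM CD11b+ and 108 to 357 CPM in spleen CD11b+ libraries. Its log2 fold change between spleen CD11b+ and LSK cells was 2.63 (SE 0.30, adjusted p = 3.90e-06). Exons of Nfkb2 overlap those of Psd on the opposite strand, and since the use of strand in counting is not given in the sources used here, its counts are uncertain to that extent.

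Rel, which encodes c-Rel, ranged over 17.2 to 37.8 CPM in LSK, 27.9 to 117 CPM in BM CD11b+ and 46.6 to 289 CPM in spleen CD11b+ libraries. Spleen libraries lay above every LSK library and overlapped with those of BM. The log2 fold change from LSK cells was 2.55 (SE 0.30, adjusted p = 4.60e-06) to spleen and 1.21 (SE 0.28, adjusted p = 0.00203) to BM CD11b+ cells. Rela rose by less, with 1.34 (SE 0.16, adjusted p = 6.50e-06) from LSK to spleen CD11b+ cells.

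Nfkb1, the precursor of p50, did not follow the other subunits. It ranged over 162 to 221 CPM in LSK, 46.9 to 292 CPM in BM CD11b+ and 117 to 361 CPM in spleen CD11b+ libraries, so that both CD11b+ ranges covered that of LSK cells. The log2 fold change was 0.32 (SE 0.26, adjusted p = 0.302) for spleen CD11b+ against LSK cells and -0.77 (SE 0.26, adjusted p = 0.0211) for BM CD11b+ against LSK cells. The BM call was lost within S3 libraries (-0.38, adjusted p = 0.486), without BM MxCre library 1 (-0.69, adjusted p = 0.0588) and without BM Ptpn11D61Y/+ library 1 (-0.72, adjusted p = 0.0627), and within MxCre libraries the value was -1.72.

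Of the inhibitors, Nfkbia ranged over 37.9 to 165 CPM in LSK, 237 to 4569 CPM in BM CD11b+ and 402 to 12801 CPM in spleen CD11b+ libraries. Each CD11b+ library lay above each LSK library. The log2 fold change from LSK cells was 4.21 (SE 0.52, adjusted p = 7.30e-06) to spleen and 3.34 (SE 0.49, adjusted p = 4.59e-05) to BM CD11b+ cells. On the log2 scale Nfkbib rose by 2.48 (SE 0.27, adjusted p = 2.18e-06) and Nfkbie by 2.55 (SE 0.27, adjusted p = 1.96e-06) from LSK to spleen CD11b+ cells. Exons of Nfkbib overlap those of Sirt2 on the opposite strand, which leaves its counts uncertain as for Nfkb2. Tnfaip3, which removes activating ubiquitin chains, rose by 3.37 (SE 0.64, adjusted p = 0.000350), and Nfkbiz, a nuclear cofactor of secondary response genes, by 2.74 (SE 0.57, adjusted p = 0.000718). Between spleen and BM CD11b+ cells the 3 members that missed the threshold were Nfkbia (0.86, adjusted p = 0.225), Nfkbiz (0.998, adjusted p = 0.236) and Tnfaip3 (0.86, adjusted p = 0.362). Leaving out 1 library changed each of these calls. Without BM MxCre library 1 Nfkbia (1.88, adjusted p = 0.00207) and Nfkbiz (1.75, adjusted p = 0.0376) passed, and without the BM library of S3 animal 640 Tnfaip3 (1.70, adjusted p = 0.00872) and Nfkbiz (1.42, adjusted p = 0.0493) did.

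The smaller rises from LSK to BM CD11b+ cells depended on the scaling. With libraries scaled by their total alone, Rela and Nfkbie turned to -0.10 and -0.07 on the log2 scale, and Nfkb2, Rel, Nfkbib and Nfkbiz missed the threshold. With the animal or number as a block, 7 of the 10 passed, where 4780 genes were called higher and 6473 lower of 19555, and Nfkb2 (adjusted p = 0.0614), Nfkbie (adjusted p = 0.0782) and Nfkbiz (adjusted p = 0.0599) did not. Within S3 libraries none of the 10 passed between spleen and BM CD11b+ cells, where 5 genes were called higher and 6 lower of 19555, so that nearly all genes missed the threshold there. Within MxCre libraries 4 members passed, where 89 and 90 genes did.

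**Figure D2:**
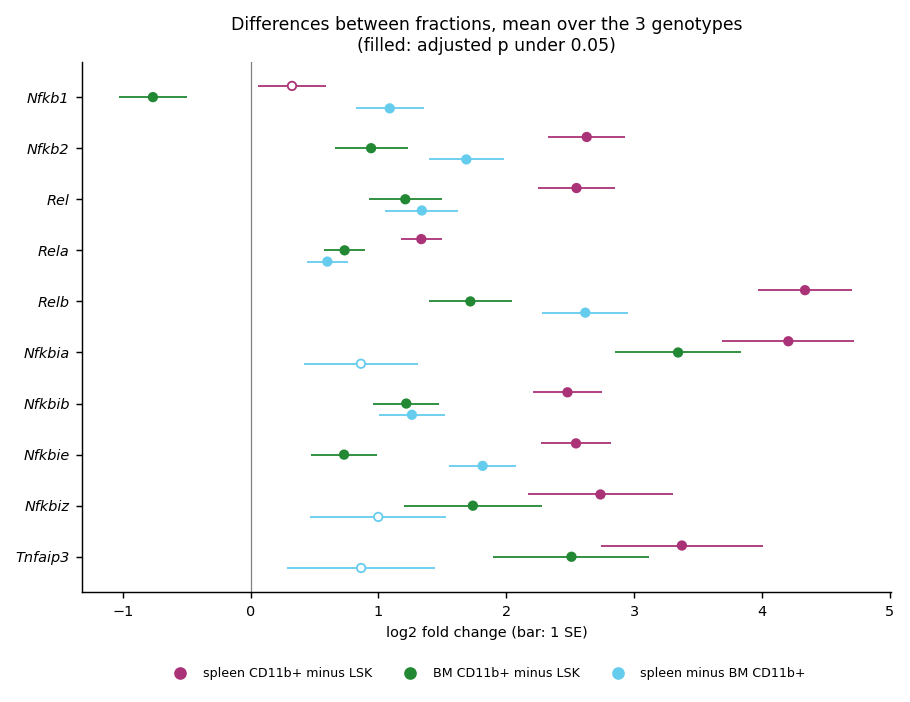
Points show the log2 fold change of each gene between fractions, averaged over the 3 genotypes, with bars of 1 SE, and filled points have an adjusted p below 0.05. Relb and Nfkbia reach 4.34 and 4.21 between spleen CD11b+ and LSK cells, while Nfkb1 stands at 0.32 there and at -0.77 between BM CD11b+ and LSK cells.

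The disease comparison of the design sets S3 against MxCre, and in spleen CD11b+ cells 4 of the 10 genes were lower in S3, Nfkbia, Nfkbib, Rel and Rela, where 2.67% of all genes tested were called lower. The median log2 fold change of the 10 was -1.61, against 0.32 for all genes (0.77 with library totals alone). Over all genes 296 were called higher and 523 lower, and 661 and 256 with library totals alone, under which Rel (-1.64, adjusted p = 0.0774) and Rela (-0.74, adjusted p = 0.114) missed the threshold. In 8 of the 10 every S3 library lay below both MxCre libraries, as in 12.9% of all genes, and in 1, Nfkb1, every S3 library lay above them, as in 20.2%.

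Nfkbia was at 7222 and 12801 CPM in spleen MxCre libraries and at 547, 573 and 482 CPM in those of S3 animals 540, 815 and 640. The S3 libraries lay close together and far below both MxCre libraries. The group means were 13.23 ± 0.58 log2 CPM (SD, n = 2) and 9.06 ± 0.13 log2 CPM (SD, n = 3). The fitted log2 fold change was -4.23 (SE 0.79, adjusted p = 0.00987). Nfkbib was at 213 and 364 CPM in MxCre and at 68.1, 64.2 and 45.6 CPM in S3 libraries. Its groups did not overlap, and the log2 fold change was -2.28 (SE 0.42, adjusted p = 0.00987).

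Rel was at 250.2 and 289 CPM in spleen MxCre and at 61.1, 87.4 and 46.6 CPM in S3 libraries, in the same order of animals. Rela was at 330.2 and 441 CPM in MxCre and at 181, 199.8 and 133 CPM in S3 libraries. For both subunits every S3 library was below both MxCre libraries. The log2 fold change was -2.05 (SE 0.47, adjusted p = 0.0244) for Rel and -1.17 (SE 0.26, adjusted p = 0.0237) for Rela.

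The other members missed the threshold. Tnfaip3 was at 1179 and 2789 CPM in spleen MxCre and at 196, 124 and 274 CPM in S3 libraries, with a log2 fold change of -3.32 (SE 0.99, adjusted p = 0.0644) although the groups did not overlap. It passed without the BM library of S3 animal 815 (-3.32, adjusted p = 0.0216) or 640 (-3.33, adjusted p = 0.00957). Nfkbiz was at 852 and 2382 CPM in MxCre and at 213, 140.1 and 655 CPM in S3 libraries (-2.27, SE 0.88, adjusted p = 0.130). S3 animal 640 was the highest of the S3 libraries for both genes. Nfkbie was at 137 and 232 CPM in MxCre and at 126, 88 and 42.2 CPM in S3 libraries (-1.11, SE 0.42, adjusted p = 0.123). Nfkb2 was at 257 and 357 CPM in MxCre and at 256, 218 and 108 CPM in S3 libraries (-0.66, SE 0.47, adjusted p = 0.378). Both were lower in every S3 library, Nfkb2 by the smaller margin. Relb was at 165 and 194 CPM in MxCre and at 197, 239 and 48.5 CPM in S3 libraries, so that animal 640 alone lay below the controls (-0.15, SE 0.53, adjusted p = 0.882). Nfkb1 was at 117 and 153 CPM in MxCre and at 335, 265 and 267 CPM in S3 libraries, the reverse order without overlap (1.10, SE 0.46, adjusted p = 0.153). Without the BM library of S3 animal 640 it passed (1.10, adjusted p = 0.0438).

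The call on Nfkbia was kept in all 21 fits that left out 1 library. With MxCre and Ptpn11D61Y/+ libraries pooled as controls, no gene passed (2141 had an unadjusted p below 0.05), these 4 included, with adjusted p of 0.205 for Nfkbia (log2 fold change -3.35), 0.183 for Nfkbib, 0.182 for Rel and 0.352 for Rela. Rel missed the threshold without spleen MxCre library 1 (adjusted p = 0.0709) or 2 (0.0685), or leaving out S3 animal 540 (0.0748) or 640 (0.0686) of the spleen. Rela did so with no filter on low counts (-1.15, adjusted p = 0.0651) and without MxCre library 2 (0.107), animal 540 (0.0622) or animal 640 (0.0587), and Nfkbib without MxCre library 2 (0.0520). Without the 3 libraries with the fewest genes detected, of which 1 is spleen MxCre library 1, 6 members passed, these 4 with Tnfaip3 (adjusted p = 0.0138) and Nfkbiz (0.0466). In that fit 526 genes were called higher and 1036 lower of 20540, against 296 and 523 with all libraries, and MxCre library 2 alone stood for its group. There, and in the fits without 1 spleen MxCre library, the spread comes from the other groups and the lone library is assumed to vary like them. In a fit of the 7 spleen libraries alone no gene of 16661 passed (3182 had an unadjusted p below 0.05), and Nfkbia stood at -4.25, SE 0.65, adjusted p = 0.0824.

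**Figure D3:**
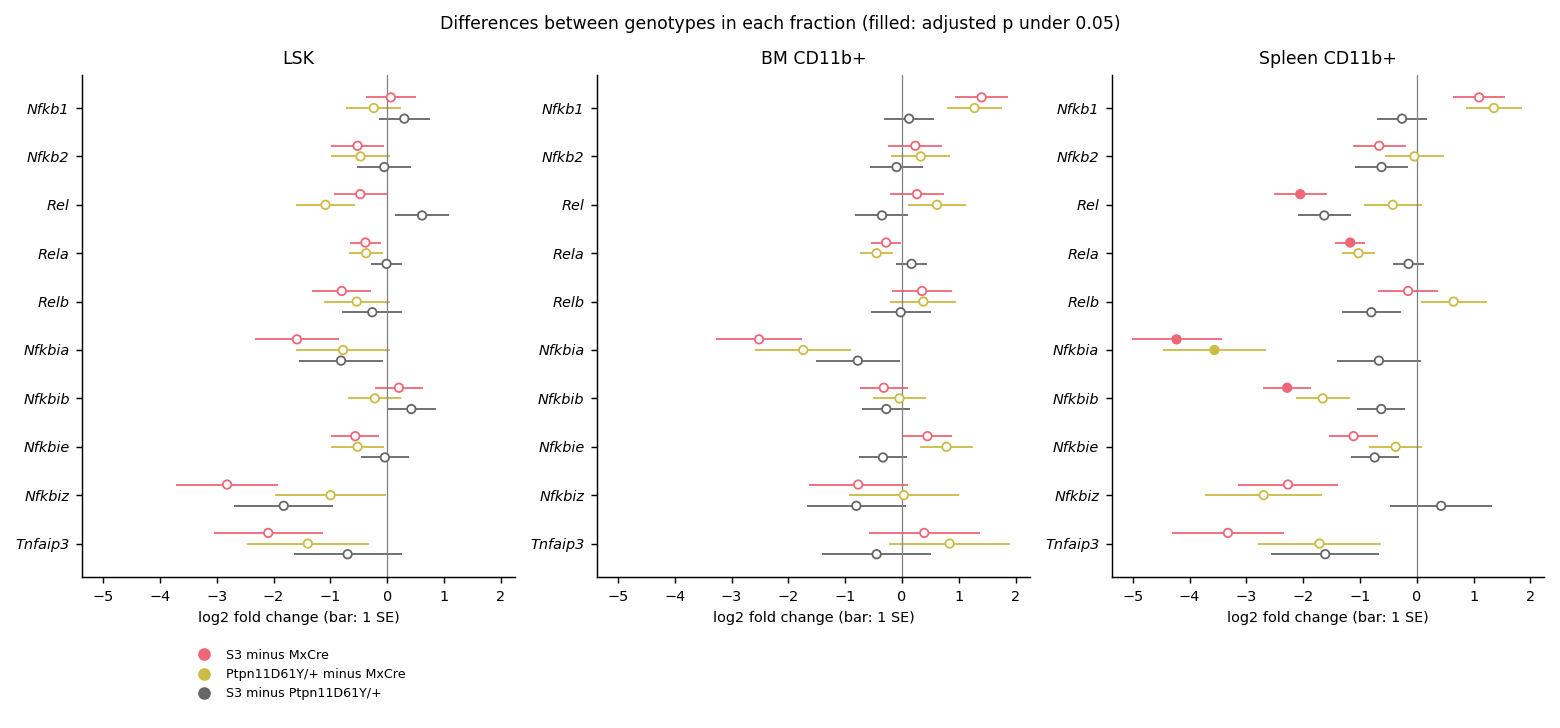
Points show log2 fold changes between genotypes within each fraction, with bars of 1 SE, and filled points have an adjusted p below 0.05. All 5 filled points are in spleen CD11b+ cells, 4 for S3 minus MxCre and 1, Nfkbia, for Ptpn11D61Y/+ minus MxCre.

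Spleen libraries labelled Ptpn11D61Y/+, in which the mutant allele is silent, also differed from MxCre libraries. Nfkbia was at 402 and 1294 CPM in them, below both MxCre libraries (-3.56, SE 0.91, adjusted p = 0.0356), the only member past the threshold, where 3.02% of all genes were called lower. This call was lost in 12 of 21 fits that left out 1 library, with an adjusted p of up to 0.308 without spleen Ptpn11D61Y/+ library 1. Nfkbib at 75.2 and 108 CPM (-1.66, SE 0.48, adjusted p = 0.0544) and Rela at 180.1 and 198 CPM (-1.03, SE 0.30, adjusted p = 0.0546) were below both MxCre libraries too, as were Rel, Nfkbiz and Tnfaip3. Nfkb1 at 361 and 331 CPM (1.36, SE 0.49, adjusted p = 0.107) and Relb at 273.5 and 288.6 CPM were above them. The share of all genes that lay apart in this way in spleen is not given here, so these positions are only a description. In LSK cells 29.4% of all genes lay below both MxCre libraries in the same comparison. DESeq2 called Rela (adjusted p = 0.00263), Nfkbib (0.00681), Nfkb1 (0.0355) and Nfkbiz (0.0397) besides Nfkbia. Over all genes it called 1878 higher and 1503 lower. With RLE factors Nfkbib passed (0.0465), where 495 genes were called higher and 618 lower. Between S3 and Ptpn11D61Y/+ spleen libraries none of the 10 passed, where 0.00511% of all genes, 1 gene, did. Rel had the lowest adjusted p of the 10 there, with 211 and 191 CPM in Ptpn11D61Y/+ libraries, all above S3 (-1.63, SE 0.46, adjusted p = 0.289), and DESeq2 called it (0.0489). The comparisons of S3 and of Ptpn11D61Y/+ with MxCre share the MxCre libraries.

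**Figure D4:**
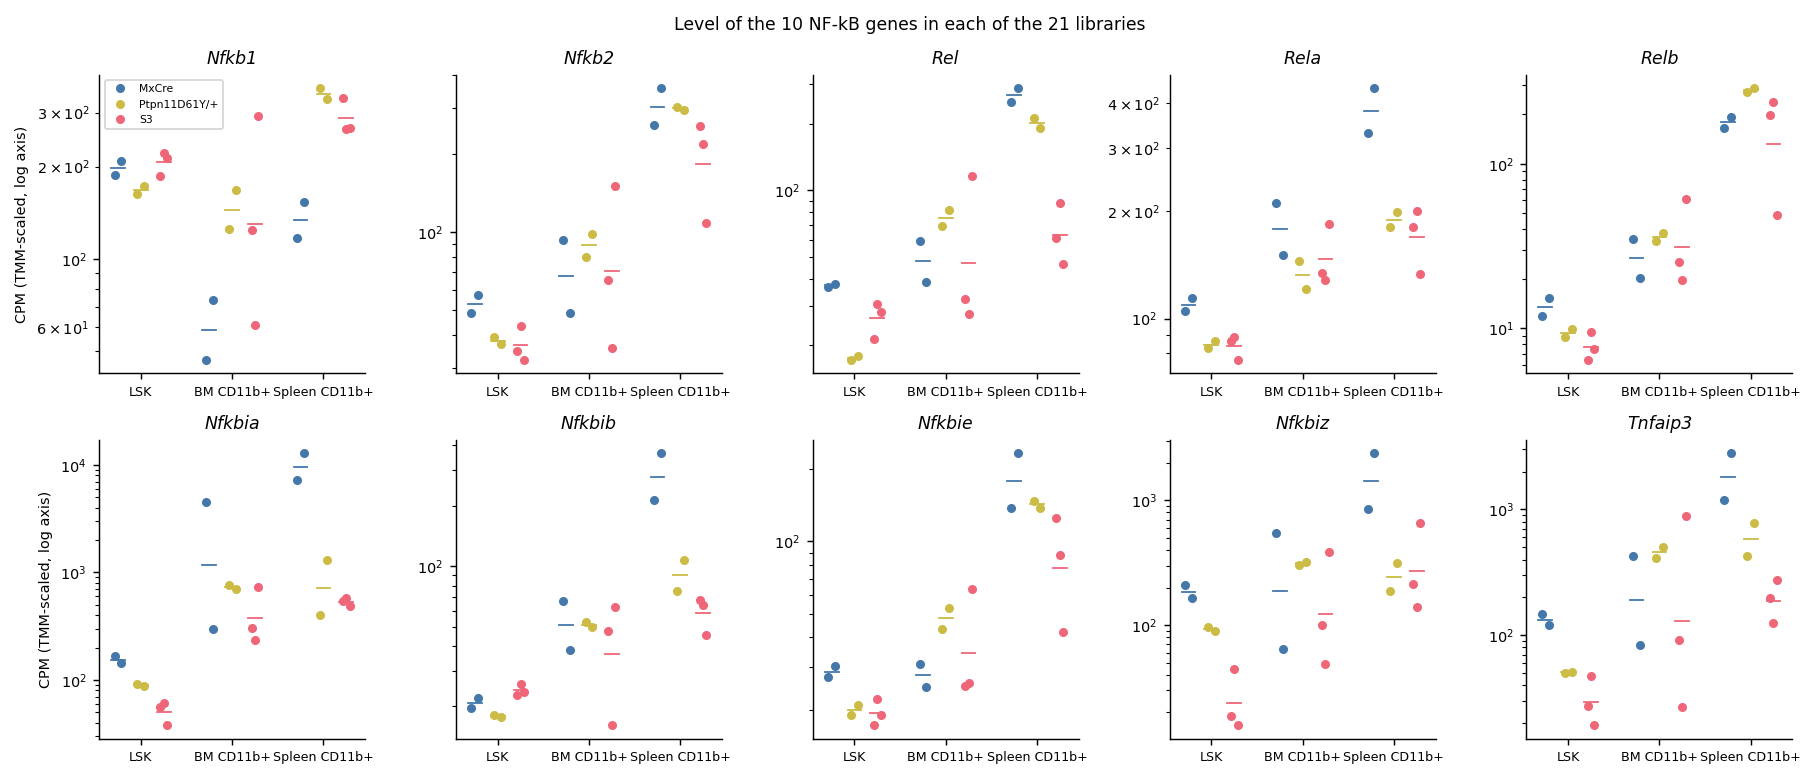
Each panel shows 1 gene, with 1 point per library, its CPM on a log axis and the geometric mean of each group as a line, by fraction and genotype. In spleen CD11b+ cells both MxCre libraries lie above all others for Nfkbia, Nfkbib and Rela, for Nfkbiz, Rel and Tnfaip3 too, and below all others for Nfkb1. The share of all genes with such a pattern is not given here.

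In BM CD11b+ cells no member differed between genotypes at an adjusted p below 0.05 in edgeR, where 0% of all genes did in each of the 3 comparisons. At an unadjusted p below 0.05, 2 members, Nfkbia and Nfkb1, and 3022 of all genes differed between S3 and MxCre. DESeq2 called 1 member, Nfkbia, where it called 495 genes higher and 470 lower of 17879. Nfkb1 was higher in S3 (1.40, SE 0.46, adjusted p = 0.22) and passed without the BM library of S3 animal 815 (1.79, adjusted p = 0.0467). Nfkbia was at 4569 and 295 CPM in BM MxCre libraries and at 305, 237 and 734 CPM in those of S3 animals 540, 815 and 640. MxCre library 1 stood above all S3 libraries and MxCre library 2 among them. The log2 fold change was -2.52 (SE 0.75, adjusted p = 0.207), and it turned to 0.54 without MxCre library 1. Nfkbiz (546 and 63.7 CPM) and Tnfaip3 (429 and 83.2 CPM) differed between the MxCre libraries in the same direction. In S3 libraries Tnfaip3 was at 92.4, 26.7 and 889 CPM, which spans the whole MxCre range. For none of the 10 were all S3 libraries above or all below the MxCre libraries, as they were for 11.2% of all genes. In MxCre library 1 of the BM, 12 monocyte and macrophage markers led by C1qa summed to 12768 CPM and 6 stroma markers led by Cxcl12 to 353 CPM, against 1568 and 9.12 CPM in MxCre library 2. Both sums were the highest of the 7 BM libraries, and their part in the result was not tested.

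In LSK cells none of the 10 passed in the fit of all 21 libraries, where 0.0307% of all genes did for S3 against MxCre, 0.0972% for S3 against Ptpn11D61Y/+ and 0.0614% for Ptpn11D61Y/+ against MxCre. DESeq2 called none of the 9 members for which it gave a p, all but Tnfaip3, and 3 of the 10, and 777 of 19555 genes, had an unadjusted p below 0.05 for S3 against MxCre. Nfkbia was at 165 and 144 CPM in MxCre, at 92.4 and 88.2 CPM in Ptpn11D61Y/+ and at 55.8, 60.6 and 37.9 CPM in S3 libraries of animals 540, 815 and 768. The 3 genotypes did not overlap. Nfkbiz was at 208 and 164 CPM in MxCre, at 96.7 and 89.7 CPM in Ptpn11D61Y/+ and at 18.6, 44.8 and 15.7 CPM in S3 libraries, with a log2 fold change between S3 and MxCre of -2.82 (SE 0.89, adjusted p = 0.796). Tnfaip3 was at 148 and 120.1 CPM in MxCre, at 50.5 and 51.1 CPM in Ptpn11D61Y/+ and at 27.4, 47.4 and 19.3 CPM in S3 libraries (-2.09, SE 0.96, adjusted p = 1). Both genes kept the order of Nfkbia without overlap. In 8 of the 10 every S3 library lay below both MxCre libraries, as in 28.9% of all genes, and in 1, Nfkbib, every S3 library lay above them, as in 29.1%. Ptpn11D61Y/+ libraries, in which the mutant allele is silent, lay below both MxCre libraries for all 10 members, as in 29.4% of all genes. Marker sums of these libraries also lay apart from MxCre, and their part in the result was not tested.

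When the 7 LSK libraries were fitted alone, 8 genes were called lower in S3 than in MxCre, where 15% of 18057 genes were called lower. They were Nfkb2, Rel, Rela, Relb, Nfkbia, Nfkbie, Nfkbiz and Tnfaip3. The log2 fold changes of that fit ran from Nfkbiz (-2.82, SE 0.52, adjusted p = 0.0177) to Rela (-0.39, SE 0.09, adjusted p = 0.0143), with Nfkbia in between (-1.59, SE 0.20, adjusted p = 0.00366). Against Ptpn11D61Y/+, S3 was called lower for Nfkbia (-0.83, SE 0.20, adjusted p = 0.0212) and Nfkbiz (-1.83, SE 0.51, adjusted p = 0.0465), where 17.6% of all genes were. S3 was called higher for Rel (0.60, SE 0.14, adjusted p = 0.0155), Nfkbib (0.41, SE 0.09, adjusted p = 0.0124) and Nfkb1 (0.29, SE 0.09, adjusted p = 0.0485), where 19.5% were. Between Ptpn11D61Y/+ and MxCre 1 member was called, Rel, at 17.2 and 17.9 CPM against 36.8 and 37.8 CPM (-1.08, SE 0.16, adjusted p = 0.0261), where 1.31% of all genes were called lower.

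Whether the S3 minus MxCre change differed between fractions was tested as an interaction. None of the 10 passed, where 0.00511% of all genes did between spleen CD11b+ and LSK cells, 0% between BM CD11b+ and LSK cells and 0% between spleen and BM CD11b+ cells. At an unadjusted p below 0.05 stood 3, 1 and 5 of the 10, and 2614, 1587 and 2100 of 19555 genes. The lowest adjusted p belonged to Nfkbib, with a log2 difference between the spleen and LSK changes of -2.49 (SE 0.61, adjusted p = 0.128), which DESeq2 called (-2.42, adjusted p = 0.00595). That 4 members passed in spleen and none in BM CD11b+ cells is thus not shown to be a difference between these fractions.

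Other genes of the pathway were counted by role in spleen CD11b+ cells, S3 against MxCre, where 2.67% of all genes were called lower, 1.51% were called higher and the median of all genes was 0.32. Of 19 receptors and ligands 3 fell and none rose, with a median log2 fold change of -0.39. These were Il1r2, the decoy receptor of interleukin 1 (-5.32, adjusted p = 0.00532), Il1b, which encodes interleukin 1 beta (-3.38, adjusted p = 0.0466), and Tlr2, a receptor for bacterial lipoproteins (-3.26, adjusted p = 0.00987). Of 29 adaptors and kinases 3 fell and none rose (median -0.23). They were Irak2, a kinase of the interleukin 1 and Toll-like receptor route (-2.43, adjusted p = 0.00406), Card9, an adaptor of receptors for fungi (-1.49, adjusted p = 0.0476), and Malt1, a paracaspase (-1.46, adjusted p = 0.0391). Irak2 was at 303 and 326 CPM in MxCre and at 62.7, 57.4 and 54.9 CPM in S3 libraries, without overlap. Of 19 ubiquitin regulators 2 fell (median -0.31), Zc3h12a, an RNase that degrades inflammatory transcripts (-3.11, adjusted p = 0.0354), and Birc3, a ubiquitin ligase (-1.91, adjusted p = 0.0179). Of 6 other IkB family genes and partners 1 fell (median -0.56), Nfkbid, a nuclear IkB, which was at 834 and 1691 CPM in MxCre and at 129, 122 and 78.7 CPM in S3 libraries (-3.52, adjusted p = 0.00876).

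Of 26 known NF-kB target genes 9 fell and 1 rose between MxCre and S3 spleen libraries, beside 2.67% and 1.51% of all genes, with a median of -2.14 against 0.32 for all genes. The target that rose was Ccnd1, which encodes cyclin D1, named after its value was seen. The largest falls were those of Csf1, a growth factor of macrophages (-4.74, adjusted p = 0.00920), Gadd45b, a stress response gene (-4.43, adjusted p = 0.0108), Ccrl2, an atypical chemokine receptor (-4.32, adjusted p = 0.0279), and Ptgs2, the inducible cyclooxygenase (-3.21, adjusted p = 0.0461). No gene of these 5 lists passed for S3 against MxCre in BM CD11b+ or LSK cells, where the median of the targets was -0.86 and 0.02 against 0.18 and 0.01 for all genes. The targets with the largest fold changes there were Ptgs2 (-3.85, adjusted p = 0.144) and Vcam1 (-3.58, adjusted p = 0.149) in BM CD11b+ cells and Cxcl2 (-4.05, adjusted p = 0.782) and Ier3 (-2.10, adjusted p = 0.872) in LSK cells, none past the threshold. In spleen Ptpn11D61Y/+ against MxCre libraries 5 of 19 receptors and ligands, 2 of 29 adaptors and kinases and 4 of 26 targets fell, beside 3.02% of all genes. They were Il1r2, Tnf, Tlr2, Il1rap and Tnfrsf1b, then Irak2 and Card9, then Slc2a6, Tnfaip2, Irf1 and Sod2, of which Tnfrsf1b and Sod2 were named after their values were seen. In that comparison 1 target rose, beside 2.1% of all genes, again Ccnd1 (3.03, adjusted p = 0.0145). From LSK to spleen CD11b+ cells 23 of 26 targets rose and 1 fell, beside 28.3% and 31.6% of all genes, with a median of 2.76 against -0.15, led by Cxcl2, a chemokine for neutrophils (8.62, adjusted p = 5.59e-06), and Cd83, an activation marker (6.52, adjusted p = 1.32e-06).

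Transcripts of stimulation and handling moved with the same groups. The 15 immediate-early genes, among them Fos, Jun and Egr1, summed to 63301 and 61424 CPM in spleen MxCre libraries, with Junb the most abundant. They summed to 14759, 16193 and 14917 CPM in those of S3 animals 540, 815 and 640 and to 7009 and 35195 CPM in Ptpn11D61Y/+ libraries, with Zfp36 the most abundant. Both MxCre libraries thus stood above all others of the spleen, as they did for Nfkbia. In BM CD11b+ cells the sums were 51207 and 10021 CPM in MxCre, 14803 and 15160 CPM in Ptpn11D61Y/+ and 10776, 8898 and 10313 CPM in S3 libraries. In LSK cells they were 16885 and 14205 CPM in MxCre, 11784 and 12785 CPM in Ptpn11D61Y/+ and 4067, 4125 and 1149 CPM in S3 libraries, the order of the genotypes seen for Nfkbia. Of these 15 genes 2 were called lower in S3 than in MxCre spleen libraries, Junb (-3.21, adjusted p = 0.0400) and Klf2 (-2.47, adjusted p = 0.0494), where 2.67% of all genes were. None was called in BM CD11b+ or LSK cells, where 0% and 0.0307% of all genes were. Their median log2 fold changes were -1.73 in spleen CD11b+, -1.08 in BM CD11b+ and -2.10 in LSK cells. Egr3 was at 0 in 3 libraries, and all 15 had counts in the other 18. Their part in the results was not tested.

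Markers of other cells differed as well. The 10 mature neutrophil markers, led by S100a9, summed to 43417 and 100125 CPM in MxCre, 57396, 25324 and 20941 CPM in S3 and 2499 and 6148 CPM in Ptpn11D61Y/+ spleen libraries. S3 and MxCre overlapped, and both Ptpn11D61Y/+ libraries lay below all others. The 8 B cell markers, led by Ighm, summed to 2458 and 506 CPM in MxCre, 3914, 2266 and 769 CPM in S3 and 20669 and 7266 CPM in Ptpn11D61Y/+ spleen libraries, which stood highest. The 8 erythroid markers, led by hemoglobin genes, summed to 2004 and 821 CPM in MxCre, 10946, 10150 and 24348 CPM in S3 and 3604 and 874 CPM in Ptpn11D61Y/+ spleen libraries, so that S3 stood above the rest. No marker of these 3 lists was at 0 in a spleen library. Of the other lists, 6 dendritic cell markers were higher in S3 (641, 1099 and 629.9 CPM) than in MxCre (619.9 and 403 CPM) spleen libraries, and 6 stroma markers lower (7.14, 5.11 and 4.58 against 9.81 and 11.9 CPM). Both Ptpn11D61Y/+ spleen libraries lay below both MxCre libraries in the immature neutrophil (2442 and 3167 against 29010 and 38085 CPM) and monocyte and macrophage sums (5175 and 3413 against 6222 and 5755 CPM). They lay above them in the T cell (278 and 141 against 48.8 and 40.2 CPM) and stem and progenitor sums (239 and 237 against 69.1 and 33.7 CPM). In the MxCre libraries some markers of the last 2 lists were at 0. In LSK libraries the mature neutrophil markers summed to 1648 and 1427 CPM in MxCre and 580.4, 945 and 735 CPM in S3, the erythroid markers to 1312 and 731 and 265, 188 and 205 CPM, and the stroma markers to 103 and 114 and 34.4, 36.5 and 39.1 CPM. These 3 sums, led in these libraries by S100a9, by Hbb-bs (MxCre) or Tfrc (S3) and by Pdgfrb, were higher in both MxCre libraries than in any S3 library. So were the sums of 9 stem and progenitor markers, Kit and Ly6a of the gate among them (1456 and 1495 CPM in MxCre, 1269, 1145 and 1144 CPM in S3), 6 dendritic cell markers led by Flt3 (400 and 441 against 307, 367 and 262 CPM) and 8 T cell markers led by Lck (36.4 and 37.4 against 27.7, 22.5 and 22.2 CPM). The 9 immature neutrophil markers, led by Mpo, were the reverse, at 3546 and 2913 CPM in MxCre and 5102, 5135 and 6434 CPM in S3 libraries. The 6 megakaryocyte markers, led by Itga2b (265 and 264 against 408, 287 and 379 CPM), and 6 NK cell markers (6.33 and 5.21 against 7.11, 18.6 and 38.8 CPM) were also higher in S3. Within the stem and progenitor list Kit followed the sum (432 and 430 CPM in MxCre, 348, 288 and 319 CPM in S3 libraries). Ly6a did not, at 50.8 and 42.5 CPM in MxCre and 42.5, 76.1 and 72.6 CPM in S3 libraries. No marker of these 9 lists was at 0 in these 5 libraries. Both LSK Ptpn11D61Y/+ libraries lay below both MxCre libraries in the mature neutrophil (348 and 302 CPM, led by Csf3r, with Stfa2l1 at 0), erythroid (173 and 124 CPM), monocyte and macrophage (174 and 149 against 327 and 275 CPM), stroma (69.0 and 56.6 CPM), dendritic cell (200.2 and 273 CPM), T cell (18.6 and 23.3 CPM) and immature neutrophil sums (2774 and 2711 CPM). They lay above them in the B cell sum, led by Ighm (22814 and 20747 against 10975 and 5186 CPM), and in the megakaryocyte (479.5 and 425 CPM), stem and progenitor (1630 and 1680 CPM) and NK cell sums (12.4 and 8.44 CPM). Ighm alone made up 22742 CPM of the B cell sum in Ptpn11D61Y/+ library 1 and 10834 and 5090 CPM in MxCre libraries 1 and 2. This sum thus mostly followed Ighm and does not show that the other B cell markers were higher. The part of cell composition in the differences of the 10 genes was not tested.

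**Figure D5:**
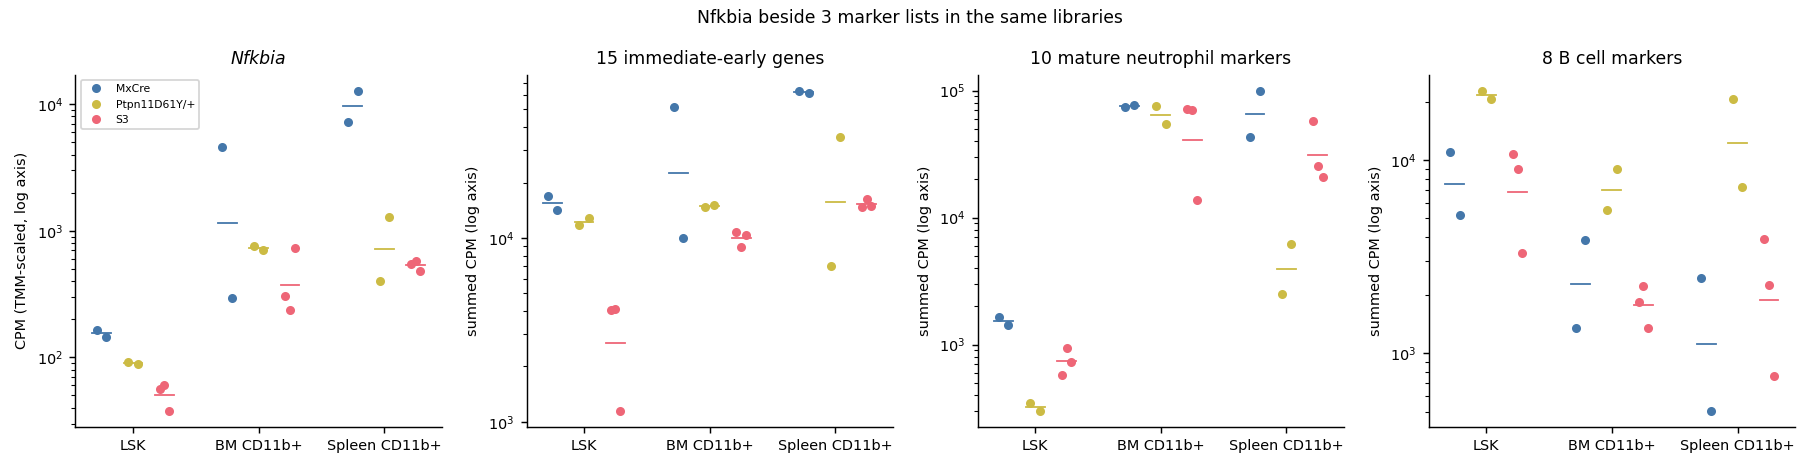
Panels show, per library and on log axes, the CPM of Nfkbia and the summed CPM of marker lists, with geometric means of the groups as lines. The 3 libraries highest in Nfkbia, spleen MxCre 1 and 2 and BM MxCre 1, also have the highest immediate-early sums.

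The genes most like each member were named by Pearson's r of log2 CPM over the 21 libraries, among 8774 genes, as a description, since these points share fractions, depth and scaling. For Nfkbia they were Ccrl2 (0.98), Nfkbid (0.98), Csrnp1 (0.97), Gadd45b (0.97) and Ets2 (0.97). Ccrl2 also led over the deviations from the 9 group means (0.97). Nfkb2 was nearest to Nfkbie (0.98) and Relb (0.98), and Relb to Nfkb2. Tnfaip3 was nearest to Zc3h12a (0.97), Tiparp (0.97) and Maff (0.96), and Nfkbiz to Tnfaip3 (0.93). Rel and Nfkbib were both nearest to Rnf19b (0.94 and 0.96), and Rela to Gadd45b (0.96). Nfkb1 was nearest to Rapgef1 (0.95), and its r with the other 9 members ran from -0.22 to 0.38. Over the deviations from the group means it ran from 0.10 (Nfkbia) to 0.73 (Rel), with 0.70 for Nfkb2, 0.70 for Tnfaip3 and 0.68 for Nfkbib, so that within groups Nfkb1 varied with several of the others.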

How the data were processed

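The authors deposited 1 table of raw read counts per gene for each library. Per the methods and the submitters' processing notes, RNA was isolated with RNeasy Micro kits, libraries were made with a stranded mRNA kit (TruSeq), and reads were handled with bcl2fastq 2.20.0.422, FastQC 0.11.9, Trim Galore 0.6.5 and STAR 2.5.3a on mm10. The counting program, its annotation and its use of strand are not given in the sources used here. Gene symbols, exon lengths and overlaps were matched by Ensembl identifier to GENCODE vM21 (GRCm38), which named 45143 of the 45706 identifiers and left 563 without a symbol.

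Counts were tested in R 4.3.3 with the quasi-likelihood test of edgeR 4.0.16, with TMM factors, 1 mean per group of fraction and genotype over all 21 libraries (12 residual degrees of freedom) and Benjamini-Hochberg adjustment over 19555 genes. These passed filterByExpr (minimum count 10, minimum total 15) and held 99.99% of the counts. The threshold was an adjusted p of 0.05. Log2 CPM used a prior count of 2. All 10 members were named, with at most 4 genes of each pathway list by size of the log2 fold change among those past the threshold, or 2 where none passed, and the genes with the highest correlation with a member. The members and lists were chosen with earlier results of these data known. Of 216 list symbols, 1 (Ahsp) had no match.

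Pairing was checked by correlating the deviations of libraries from their group means. For S3 animals, r between BM and spleen libraries was 0.41 (815), 0.33 (640) and 0.11 (540), and between LSK and CD11b+ libraries of 1 animal it was at most 0.09. Libraries of MxCre or Ptpn11D61Y/+ that share a number gave at most 0.06. Alternatives were RLE factors, library totals, no filter, single fractions, pooled controls, blocks, leaving out libraries and DESeq2 1.42.0. On simulated counts for S3 against MxCre in spleen, edgeR recovered 187 of 200 genes changed by 4 on the log2 scale and 70 of 200 changed by 2. Of the unchanged genes it called 8 and 1. Apart from the changed genes, the simulation gave all groups the same mean and spread per gene. The recovered shares therefore need not hold for the real libraries. Tables and figures used Python 3.11.15, pandas 2.3.3 and matplotlib 3.10.9.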

Additional observations from a re-analysis of the deposited data

How the results depend on the processing

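With 2 or 3 libraries per group, many calls sat near the threshold, and the cause of the shifts below was not tested. Fitted by fraction, LSK libraries gave 8 members called for S3 against MxCre, 5 for S3 against Ptpn11D61Y/+ and 1 for Ptpn11D61Y/+ against MxCre, and spleen libraries gave 0 in both comparisons with MxCre. The LSK shift for S3 against MxCre was not one near the threshold. Nfkbiz stood at -2.82 in both edgeR fits, with an adjusted p of 0.796 over all 21 libraries and 0.0177 in LSK libraries alone. These fits estimate the spread from different sets of libraries. For S3 against MxCre in spleen CD11b+ cells 2 members passed with library totals alone and 0 with MxCre and Ptpn11D61Y/+ pooled as controls. For Ptpn11D61Y/+ against MxCre in spleen 2 passed with RLE factors, 0 with library totals alone, 5 with DESeq2 and 4 without the 3 libraries with the fewest genes detected, an alternative chosen after seeing the data (771 genes higher and 1310 lower). Over all genes Ptpn11D61Y/+ against MxCre in spleen gave 495 higher and 618 lower with RLE factors. Library totals alone gave 1429 and 278 there, and DESeq2 gave 1878 and 1503. DESeq2 called 1 for S3 against MxCre in BM, 1 for S3 against Ptpn11D61Y/+ in spleen and 1 for the spleen minus LSK interaction. Without those 3 libraries 1 passed for that interaction and 2 for spleen minus BM, Nfkbia and Nfkbib (75 genes higher and 198 lower, and 50 and 183). DESeq2 gave no p for Tnfaip3 in any comparison, so that its counts are of the other 9 members.

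From LSK to BM CD11b+ cells 4 passed with library totals alone, where Rela stood at -0.1 and Nfkbie at -0.0737, 5 within S3 libraries (2823 higher and 2478 lower over all genes) and 3 within MxCre libraries (3251 and 3970), where Nfkbie stood at -0.0412. Between spleen and BM CD11b+ cells 0 passed within S3 libraries, where Tnfaip3 stood at -0.763 and 5 of all 19555 genes were called higher and 6 lower, and 4 within MxCre libraries (89 and 90 over all genes). The replicate block by animal or number left 9 members called between spleen CD11b+ and LSK, 7 between BM CD11b+ and LSK and 7 between spleen and BM CD11b+ cells (5146 genes higher and 6558 lower, 4780 and 6473, and 1183 and 1090), and changed no call between Ptpn11D61Y/+ and MxCre, where Nfkbia in spleen remained the 1 called.

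Leaving out 1 library at a time, 1 to 6 members were called for S3 against MxCre in spleen, 0 to 1 in BM and 0 in LSK. The count was 0 to 4 for Ptpn11D61Y/+ against MxCre in spleen, 0 to 1 in BM and 0 in LSK, 0 to 1 for S3 against Ptpn11D61Y/+ in spleen and 0 in the other fractions, and 0 for the 3 interactions. It was 9 throughout between spleen CD11b+ and LSK, 7 to 10 between BM CD11b+ and LSK and 5 to 9 between spleen and BM CD11b+ cells. Counts over all genes in these fits are not given here, so the ranges do not show whether members moved with all genes. Nfkbia in BM ran from -3.41 to 0.535 for S3 against MxCre and from -2.63 to 1.32 for Ptpn11D61Y/+ against MxCre, the low ends without BM MxCre library 2 and the high ends without BM MxCre library 1. Without the 3 libraries the values were 0.825 and 1.32.

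Over all genes, DESeq2 called 1963 higher and 1446 lower for S3 against MxCre in spleen, 1878 and 1503 for Ptpn11D61Y/+ against MxCre and 265 and 120 for S3 against Ptpn11D61Y/+, where edgeR called 296 and 523, 410 and 590, and 1 and 0. In LSK cells DESeq2 called 40 and 88 for S3 against MxCre, 134 and 114 for S3 against Ptpn11D61Y/+ and 4 and 99 for Ptpn11D61Y/+ against MxCre, where edgeR called 1 and 5, 18 and 1, and 0 and 12. In BM CD11b+ cells DESeq2 called 495 and 470, 177 and 79, and 829 and 1035 in these comparisons, where edgeR called 0 in each. For the interactions DESeq2 called 554 and 273 (spleen minus LSK), 108 and 33 (BM minus LSK) and 330 and 199 (spleen minus BM), where edgeR called 1, 0 and 0. Between spleen and BM CD11b+ cells DESeq2 called 1838 and 2415, and edgeR 1283 and 1447. With library totals alone Ptpn11D61Y/+ against MxCre in spleen gave 1429 higher and 278 lower, and without the filter 253 and 414, with 139 and 356 for S3 against MxCre. Fitted alone, LSK libraries gave 2952 and 2700 for S3 against MxCre, 3522 and 3175 for S3 against Ptpn11D61Y/+ and 82 and 237 for Ptpn11D61Y/+ against MxCre, while spleen libraries fitted alone and pooled controls gave 0 in spleen.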
